A study of Mus musculus with 4 samples.

Results

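The genes of glycolysis and gluconeogenesis were examined in 4 Visium sections of mouse kidney. The set held 34 genes, chosen by name as enzymes, regulators and transporters of these pathways, out of 32285 genes listed in the files. Visium reads out transcripts from a grid of barcoded spots under the tissue, each of which can hold several cells, and every captured molecule counts once by its unique molecular identifier (UMI). All sections came from left kidneys of male wild type C57BL/6J mice of 7 to 8 weeks and were cut at 10 µm. The 2 normal sections were from untreated kidneys, and the 2 ischemic sections were from kidneys collected 24 h after 30 min of bilateral ischemia, so no transgene or genetic change is shared or compared. The study profiled 2 mice per condition with 2 sections of each, and the sources used here do not tell which mouse a section came from. The section was therefore the unit, and p-values measure the spread between sections, which may be technical.

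The files held 44528078 UMIs for normal section 1, 27657481 for normal section 2, 31053530 for ischemic section 1 and 25957128 for ischemic section 2. The tubular injury genes Havcr1 (1.17 and 2.14 CPM in normal, 1287 and 1279 CPM in ischemic sections) and Lcn2 (5.93 and 7.97 CPM against 2793 and 3283 CPM) went with the labels. CPM stands here for counts per 1e6 UMIs after TMM scaling of the section totals. Since a transcript is counted by its 3′ end, the values are not scaled to transcript length, and shares between related genes are shares of captured molecules. In such sums, fewer cells of a type and less RNA per cell cannot be told apart.

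Glycolysis splits glucose into pyruvate in the cytosol, and gluconeogenesis makes glucose from lactate, glutamine and other precursors by running most of the same steps backwards. The steps that run only forward are carried by hexokinase, phosphofructokinase and pyruvate kinase, and they are bypassed on the way back by pyruvate carboxylase, PEP carboxykinase, fructose-1,6-bisphosphatase and glucose-6-phosphatase. In the kidney, gluconeogenesis belongs to the proximal tubule, which burns fatty acids and uses little glucose, whereas the distal segments and the medulla are the glycolytic parts. Ischemia interrupts oxygen supply, and the outer stripe of the outer medulla, which holds the straight part of the proximal tubule, is known as its most vulnerable zone.

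In whole sections, 21 of the 34 genes passed the test between conditions, 11 higher and 10 lower in ischemic sections, while 60.6% of the 15305 genes tested passed (31.0% higher, 29.7% lower). The share of genes called is close to that background, and the account below is of which genes moved and where. The median log2 fold change was 0.04 over the 34 genes and 0.04 over all genes. With scaling by library size alone, the median of all genes shifted by 0.27 on the log2 scale and the split of called genes became 17 higher and 10 lower. Under that scaling, 37.6% of all genes were called higher and 18.5% lower. In the plot of levels by section, the changes run against each other within single steps of the pathway.

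**Figure D1:**
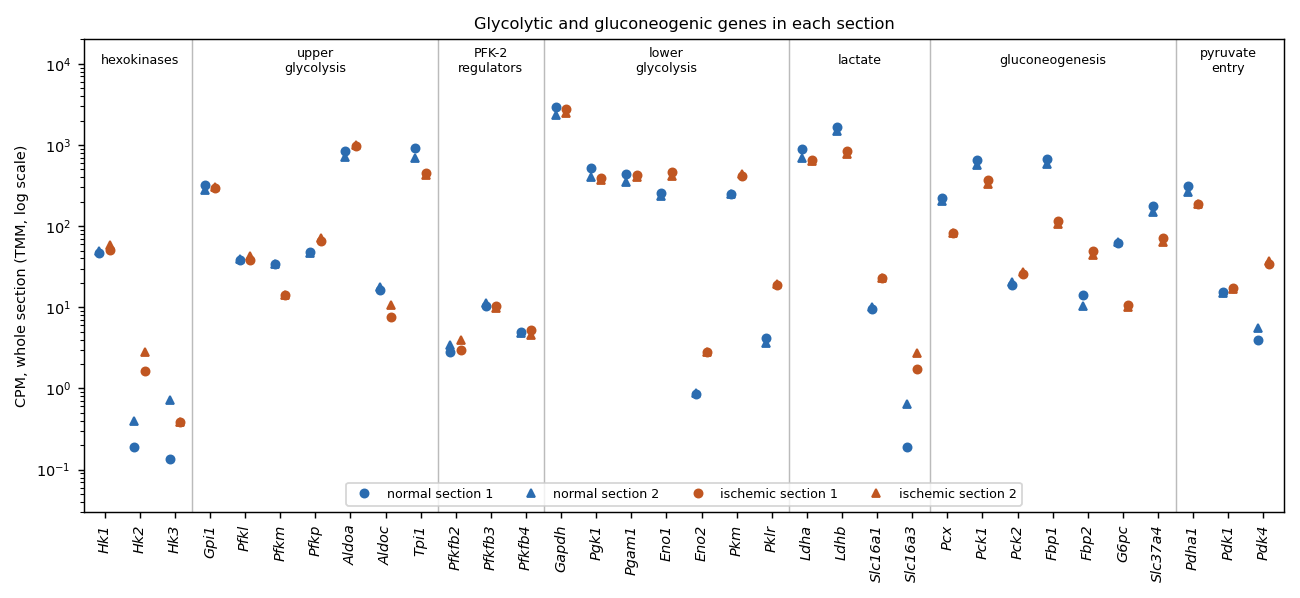
Level of each of the 34 genes in the 4 whole sections, in CPM on a log scale, with genes grouped by role. Blue points are normal and orange points ischemic sections, circles section 1 and triangles section 2. G6pc and Fbp1 sit far lower in ischemic sections, whereas Fbp2, Pklr, Pdk4 and Hk2 sit higher.

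The gluconeogenic genes held the strongest falls. G6pc, the catalytic subunit of glucose-6-phosphatase that releases free glucose, was at 61.5 and 64.1 CPM in normal and 10.7 and 10.0 CPM in ischemic sections. Fbp1, the liver and kidney form of fructose-1,6-bisphosphatase, was at 669 and 587 CPM in normal and 117 and 106 CPM in ischemic sections. For both genes, the conditions lay far apart and the sections of a condition close together. The log2 fold change was -2.60 ± 0.10 (SE, adjusted p = 1.72e-07, edgeR quasi-likelihood test with Benjamini-Hochberg adjustment) for G6pc and -2.49 ± 0.14 (adjusted p = 1.24e-06, edgeR) for Fbp1. Pcx, the mitochondrial pyruvate carboxylase, fell from 222 and 203 CPM to 83.3 and 82.0 CPM (log2 fold change -1.36 ± 0.12, adjusted p = 1.2e-05, edgeR). Slc37a4, the transporter that brings glucose-6-phosphate to glucose-6-phosphatase in the endoplasmic reticulum, fell from 178 and 150 CPM to 71.7 and 64.4 CPM (log2 fold change -1.27 ± 0.13, adjusted p = 3.38e-05, edgeR). Pck1, the cytosolic PEP carboxykinase, was at 654 and 563 CPM in normal and 375 and 328 CPM in ischemic sections, a smaller difference (log2 fold change -0.79 ± 0.15, adjusted p = 0.00148, edgeR). That call was lost without ischemic section 2 (log2 fold change -0.69, adjusted p = 0.114). Adipocytes also express Pck1 and Pcx, and 4 adipocyte markers summed to 308 and 122 CPM in normal and 3.80 and 3.45 CPM in ischemic sections. Without the spots rich in adipocyte RNA, the log2 fold change was -0.80 for Pck1 (adjusted p = 0.00192) and -1.35 for Pcx (adjusted p = 1.92e-05).

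The other 2 of the 7 gluconeogenic genes rose. Fbp2, the form of fructose-1,6-bisphosphatase best known from muscle, was at 14.2 and 10.5 CPM in normal and 49.2 and 43.6 CPM in ischemic sections (log2 fold change 1.90 ± 0.14, adjusted p = 5.89e-06, edgeR). Pck2, the mitochondrial PEP carboxykinase, was at 18.8 and 20.5 CPM against 25.4 and 27.2 CPM (log2 fold change 0.42 ± 0.10, adjusted p = 0.00471, edgeR), a call lost without ischemic section 2 (log2 fold change 0.38, adjusted p = 0.0735). The same reaction was thus carried by a falling and a rising gene at 2 steps. Of the UMIs of both bisphosphatase genes, Fbp2 held 2.08% and 1.75% in normal sections and 29.7% and 29.05% in ischemic sections, with 95% Clopper-Pearson intervals of 1.91% to 2.26%, 1.56% to 1.96%, 28.5% to 30.9% and 27.7% to 30.4%, which cover counting error only. Markers of skeletal muscle (4 genes) summed to between 1.18 and 1.85 CPM in whole sections. Those of smooth muscle (4 genes) summed to 185 and 241 CPM in normal and 268 and 287 CPM in ischemic whole sections, to 182 and 403 CPM against 174 and 168 CPM in the cortex, and to 58.4 and 70.9 CPM against 425 and 480 CPM in the outer stripe. Their part in the level of Fbp2 was not tested.

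Fbp1 and Fbp2 are neighbours on the minus strand of chromosome 13 (GRCm38, GENCODE M21), at 62864753 to 62888282 and 62836877 to 62858422, with 6330 bases between them. G6pc lies on the plus strand of chromosome 11 at 101367561 to 101377903, and Hk2, the inducible hexokinase described further on, on the minus strand of chromosome 6 at 82725025 to 82774454. The promoters of these genes are shown since they stand for the strongest falls and for rising partners of the same pathway. Each runs from 250 bases before to 50 bases after the start of the gene (RefSeq, GRCm38.p6), 5′ to 3′ on the strand of the gene. Capitals mark ACGTG or its reverse complement CACGT, the core of the element bound by hypoxia-inducible factors, and adjoining matches on opposite strands overlap. The Fbp1 window lies at chr13:62888233-62888532, that of Fbp2 at chr13:62858351-62858650, that of G6pc at chr11:101367466-101367765 and that of Hk2 at chr6:82774405-82774704.
Fbp1: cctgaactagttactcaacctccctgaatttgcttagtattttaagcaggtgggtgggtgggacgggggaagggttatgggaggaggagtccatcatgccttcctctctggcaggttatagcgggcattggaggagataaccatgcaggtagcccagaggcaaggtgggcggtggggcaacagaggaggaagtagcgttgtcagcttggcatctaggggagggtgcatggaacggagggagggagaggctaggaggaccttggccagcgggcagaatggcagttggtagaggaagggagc
Fbp2: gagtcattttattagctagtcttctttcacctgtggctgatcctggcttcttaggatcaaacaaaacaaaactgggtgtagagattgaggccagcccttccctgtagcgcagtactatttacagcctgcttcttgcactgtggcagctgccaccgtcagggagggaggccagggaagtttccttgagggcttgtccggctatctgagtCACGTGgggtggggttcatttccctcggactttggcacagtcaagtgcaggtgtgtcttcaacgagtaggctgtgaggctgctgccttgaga
G6pc: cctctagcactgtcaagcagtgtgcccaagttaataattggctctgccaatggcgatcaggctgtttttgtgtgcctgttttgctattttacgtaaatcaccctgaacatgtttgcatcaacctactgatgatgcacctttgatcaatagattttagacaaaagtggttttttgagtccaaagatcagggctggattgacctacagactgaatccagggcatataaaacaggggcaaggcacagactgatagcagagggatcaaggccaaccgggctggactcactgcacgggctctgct
Hk2: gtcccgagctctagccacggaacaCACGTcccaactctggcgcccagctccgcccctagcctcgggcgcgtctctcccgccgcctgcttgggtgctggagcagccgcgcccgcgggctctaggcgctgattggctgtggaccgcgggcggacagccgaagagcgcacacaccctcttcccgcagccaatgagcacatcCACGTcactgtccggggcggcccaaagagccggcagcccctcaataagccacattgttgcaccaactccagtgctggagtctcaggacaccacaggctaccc

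The windows of Fbp2 and Hk2 each held 2 matches, and those of Fbp1 and G6pc held 0. The matches of Fbp2 are a single stretch, CACGTG, read on both strands, while those of Hk2 lie apart. Across all promoters of this length, 6447 of 32851 (19.6%) held a match. Promoters were found for all 34 genes, 53 in all, of which 21 held a match, from 17 genes. Among them were all 3 hexokinases, 3 of 4 lactate genes, Pgk1, Gapdh, Pkm and Pgam1, and of the 7 gluconeogenic genes Pcx and Fbp2. In whole sections, Hk2, Pkm, Slc16a1, Slc16a3 and Fbp2 rose and held matches. Hk1, Hk3, Aldoa, Pfkfb2, Pfkfb3, Gapdh, Pgk1, Pgam1 and Ldha held matches and did not pass the test between conditions. Pfkm, Aldoc and Pcx fell and held matches, and Pklr, Pdk4, Eno1, Eno2, Pfkp and Pck2 rose and held 0. A match in these letters is a description of the sequence and not a site.

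To place the genes in the kidney, marker genes, read over each spot together with at most 6 adjacent spots, placed it in cortex, outer stripe, inner stripe, inner medulla or pelvis, and counts were summed per section and zone. The mean level of each marker list was scaled within its section, and outside the pelvis a spot went to the zone whose list scored highest. None of the 34 genes is a zone marker, but the cortex list is mostly of proximal tubule transporters. The zone markers themselves fell in whole ischemic sections, namely 6 of 6 for the cortex, 5 of 5 for the outer stripe, 4 of 4 for the inner stripe and 5 of 6 for the pelvis, while for the inner medulla 2 of 5 rose and 1 fell. Where a zone is drawn in ischemic tissue therefore rests on fewer marker UMIs. Zone sizes differed as well. The cortex had 1178 and 1160 normal against 953 and 955 ischemic spots. Spots of the outer stripe numbered 803 and 820 against 621 and 681, and those of the inner stripe 370 and 343 against 429 and 547. The inner medulla had 134 and 224 against 292 and 300 spots. Spots of the ischemic cortex that lost more of the proximal tubule transporters than others could be placed in another zone. Whether a zone covers the same tissue in both conditions was not tested, nor was the part of this in the contrasts between zones. Hk2, Hk3 and Slc16a3 had too few UMIs to be tested in the cortex, Hk3 in the outer stripe, Hk2 and Hk3 in the inner stripe, and these genes with Eno2 and Pklr in the inner medulla. In the cortex, 20 of the 31 genes tested passed, 10 higher and 10 lower, against 49.8% of all genes (25.7% higher, 24.1% lower). In the outer stripe, 23 of 33 passed, 11 higher and 12 lower, against 67.4% of all genes (34.5% higher, 32.9% lower). With scaling by library size alone, these splits became 13 higher and 8 lower in the cortex and 16 higher and 10 lower in the outer stripe, while all genes split into 33.4% higher and 15.8% lower in the cortex and 47.7% higher and 20.7% lower in the outer stripe. Of the calls, 6 in the cortex (Aldoa, Pck2, Pdha1, Pgam1, Pgk1 and Tpi1, adjusted p from 0.0512 to 0.358) and 4 in the outer stripe (Aldoa, Eno2, Ldha and Pfkl, adjusted p from 0.0769 to 0.299) were lost on leaving out a section.

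**Figure D2:**
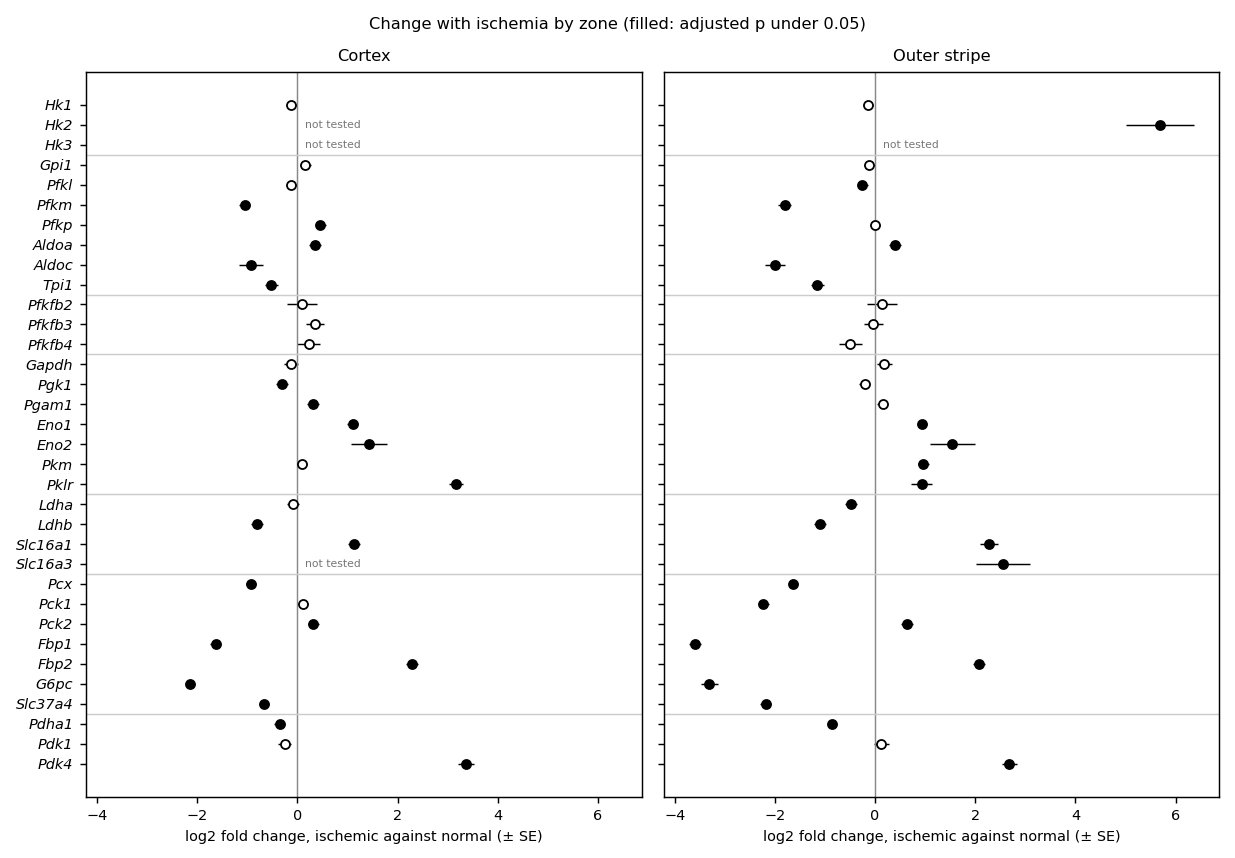
Log2 fold change of each gene between ischemic and normal sections, with its standard error, in the cortex (left) and the outer stripe (right). Filled points passed an adjusted p of 0.05. Pck1 sits at 0.10 in the cortex and at -2.23 in the outer stripe, and Pklr at 3.16 and 0.93. The value of Hk2 in the outer stripe rests on 1 UMI in normal sections and is no bound.

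Pck1 fell in the outer stripe and did not pass the test in the cortex. In the cortex it was at 908 and 822 CPM in normal and 931 and 902 CPM in ischemic sections, which did not pass the test (adjusted p = 0.477, edgeR). In the outer stripe it was at 721 and 733 CPM in normal and 152 and 150 CPM in ischemic sections (log2 fold change -2.23 ± 0.11, adjusted p = 6.85e-14, edgeR). The sections of the 2 conditions thus overlapped in the cortex and lay 4.83-fold apart in the outer stripe. The contrast of outer stripe against cortex differed between conditions by -2.37 ± 0.26 on the log2 scale (adjusted p = 3.04e-06, edgeR with a section term). The cortex was drawn mostly by proximal tubule transporters, which fell with ischemia, and the part of this in the contrast was not tested. In the cortex, scaling by library size alone gave a log2 fold change of 0.31 for Pck1 (adjusted p = 0.00571), in the same direction as the main value of 0.10.

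Fbp1, G6pc, Slc37a4 and Pcx fell in both zones and further in the outer stripe. Fbp1 was at 861 and 835 CPM against 271 and 270 CPM in the cortex, and at 806 and 775 CPM against 61.7 and 65.8 CPM in the outer stripe. Its log2 fold change was -1.63 ± 0.11 in the cortex and -3.60 ± 0.12 in the outer stripe, and the difference between zones was -1.98 ± 0.23 (adjusted p = 6.03e-06, edgeR). G6pc was at 113 and 124 CPM against 26.2 and 26.8 CPM in the cortex, and at 33.3 and 41.1 CPM against 3.603 and 3.634 CPM in the outer stripe, with a difference between zones of -1.18 ± 0.20 (adjusted p = 0.000217, edgeR). Slc37a4 was at 269 and 245 CPM against 160 and 158 CPM in the cortex, and at 168 and 153 CPM against 36.8 and 31.7 CPM in the outer stripe (difference -1.53 ± 0.16, adjusted p = 1.35e-06, edgeR). Pcx also differed between zones (-0.73 ± 0.22, adjusted p = 0.0244, edgeR), but not without ischemic section 1 (-0.78, adjusted p = 0.234) or 2 (-0.68, adjusted p = 0.303).

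Fbp2 did not follow this pattern. It was at 21.8 and 15.8 CPM against 91.5 and 91.5 CPM in the cortex, and at 13.5 and 11.6 CPM against 54.0 and 49.8 CPM in the outer stripe, with log2 fold changes of 2.29 ± 0.12 and 2.08 ± 0.12. The difference between the zones was not past the threshold (adjusted p = 0.53, edgeR). Within the ischemic outer stripe, Fbp2 held 46.7% and 43.1% of the UMIs of the bisphosphatase pair, against 1.64% and 1.48% in normal sections. Pck2 was at 21.3 and 20 CPM against 24.1 and 26.99 CPM in the cortex, and at 19.9 and 20.4 CPM against 30.1 and 30.9 CPM in the outer stripe (log2 fold changes 0.32 ± 0.12 and 0.63 ± 0.12). With the fall of Pck1, its share of PEP carboxykinase UMIs in the outer stripe went from 2.68% and 2.71% to 16.5% and 17.1%. In the maps, the remaining Fbp1 and Pck1 of ischemic sections line the outer rim of the tissue, while Fbp2 reaches further inwards.

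**Figure D3:**
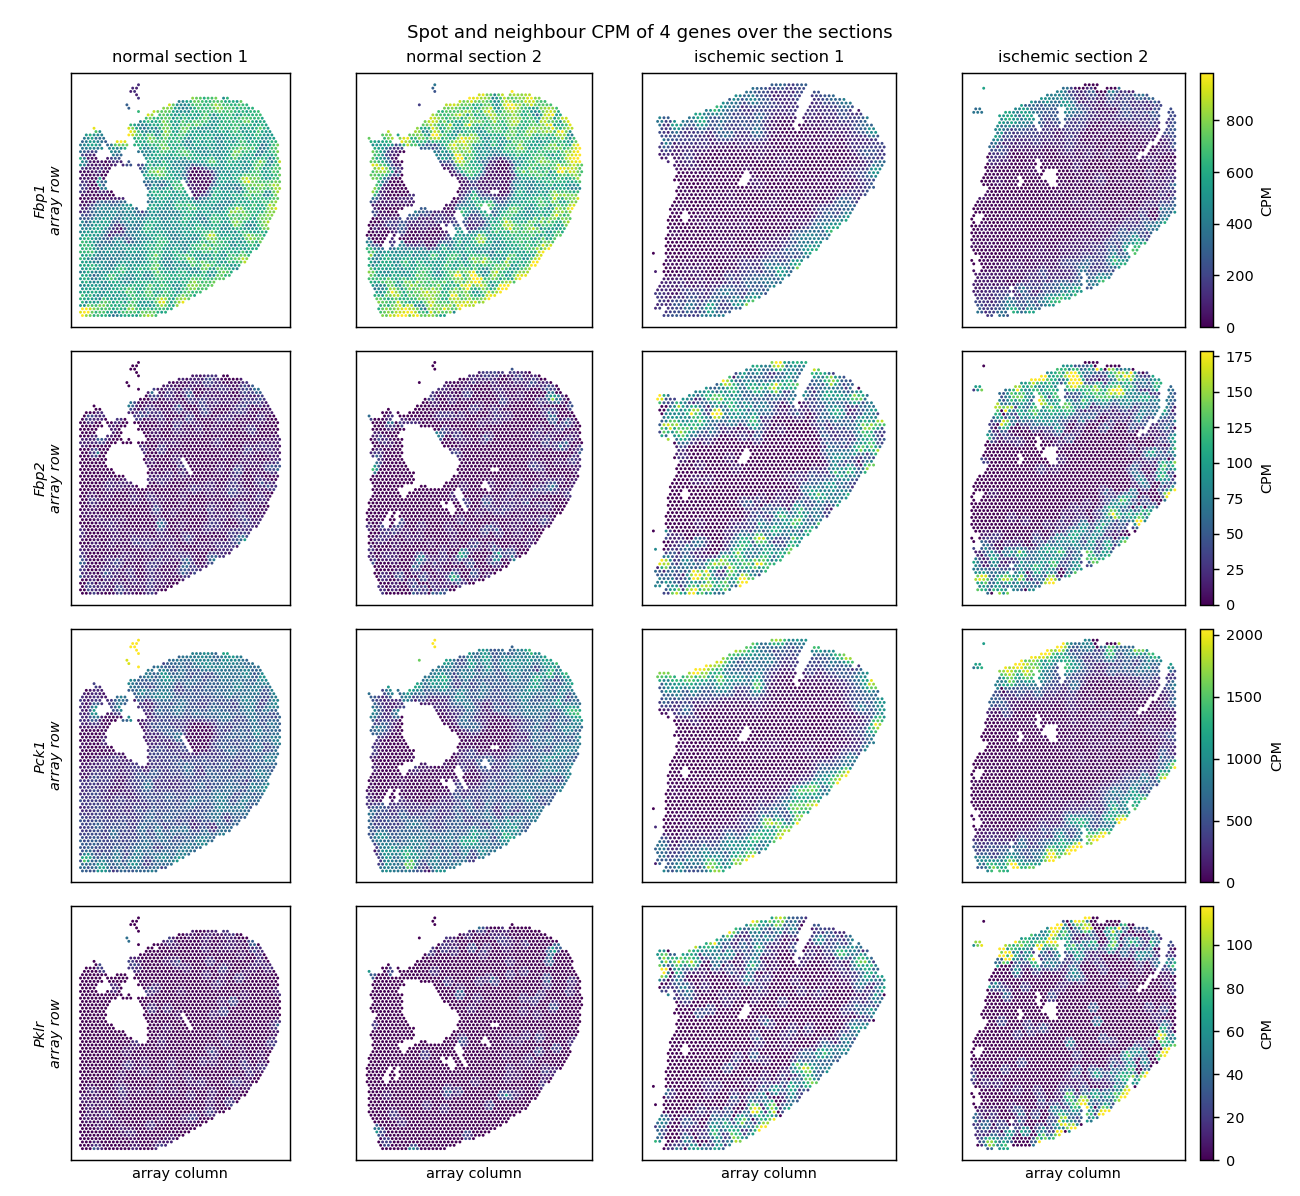
CPM of Fbp1, Fbp2, Pck1 and Pklr (rows) over the spots of the 4 sections (columns), pooled over each spot and its neighbours and drawn at array positions, with 1 colour scale per gene. Fbp1 fills cortex and outer stripe of normal sections and is left at the rim of ischemic sections, where Pck1, Pklr and Fbp2 are high.

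Levels of the proximal tubule itself moved with these genes. The summed level of 5 proximal tubule markers (Lrp2, Cubn, Slc27a2, Aqp1 and Slc13a3) was 4263 and 3690 CPM in the normal and 1773 and 1862 CPM in the ischemic cortex. In the outer stripe it was 6078 and 5728 CPM in normal and 1012 and 1070 CPM in ischemic sections. All 5 markers fell in both zones (edgeR). Their part in the falls of the gluconeogenic genes was not tested. Set against this sum, Pck1 was at 21.3% and 22.3% of it in the normal and 52.5% and 48.5% in the ischemic cortex, and at 11.9% and 12.8% against 14.98% and 13.98% in the outer stripe. Fbp1 was at 20.2% and 22.6% of the sum against 15.3% and 14.5% in the cortex, and at 13.3% and 13.5% against 6.09% and 6.15% in the outer stripe. G6pc was at 2.66% and 3.36% of the sum against 1.48% and 1.44% in the cortex, and at 0.547% and 0.718% against 0.356% and 0.340% in the outer stripe. Pcx was at 8.34% and 9.21% against 9.89% and 10.03% in the cortex, and at 2.79% and 3.04% against 5.37% and 5.02% in the outer stripe. Slc37a4 was at 6.31% and 6.64% against 9% and 8.47% in the cortex, and at 2.76% and 2.67% against 3.63% and 2.97% in the outer stripe. Relative to these markers, Pck1, Pcx and Slc37a4 were thus higher and Fbp1 and G6pc lower in ischemic sections, with no overlap of conditions in either zone. The list itself was 2.19 times lower in the ischemic cortex and 5.67 times lower in the outer stripe. Any gene that fell less comes out higher against it, and the median log2 fold change of all genes was 0.03 and 0.05. Ldhb also came out higher, at 22.1% and 22.8% against 61.2% and 54.3% in the outer stripe. The share of all genes that would was not computed.

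**Figure D4:**
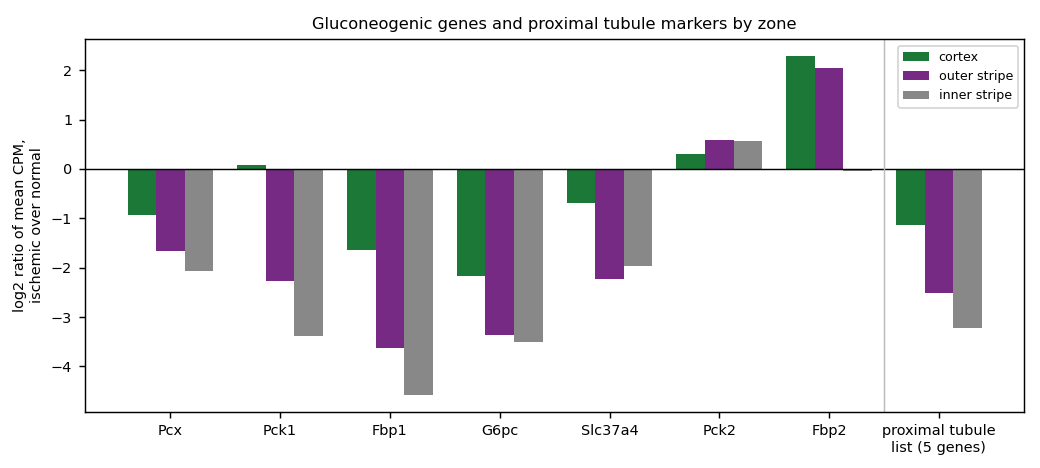
Log2 ratio of the mean CPM of ischemic over normal sections for the 7 gluconeogenic genes and the summed proximal tubule list, by zone (green cortex, purple outer stripe, grey inner stripe). Bars below 0 are lower in ischemic sections. The list is lowest in the inner stripe, and Pck1 stayed near 0 in the cortex.

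Among the hexokinases, which trap glucose in the cell by phosphorylation, Hk1 was the main form in every section and zone. It was at 46.2 and 48.8 CPM in normal and 50.6 and 58.0 CPM in ischemic sections, which did not pass the test (adjusted p = 0.138, edgeR). Hk2, the inducible form, rose from 0.19 and 0.40 CPM to 1.65 and 2.83 CPM (log2 fold change 2.96 ± 0.43, adjusted p = 0.000353, edgeR). On counts this low the size was uncertain: the log2 fold change was 3.90 without the spots rich in adipocyte RNA (adjusted p = 0.000291), and 1.31 from mean CPM per spot with a pseudocount (adjusted p = 0.00148, limma). For Hk2, the normal outer stripe held 0 and 1 UMIs and the ischemic outer stripe 30 and 32. The ratio of the pooled rates was 83.8, with a 95% counting interval of 14.5 to 3364. Hk2 took 7.21% and 8.21% of hexokinase UMIs there, so Hk1 remained the larger part. Hk3, known from myeloid cells, was at 0.14 and 0.72 CPM in normal and 0.38 and 0.38 CPM in ischemic sections (adjusted p = 0.944, edgeR).

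A list of 5 neutrophil markers (S100a8, S100a9, Retnlg, Csf3r and Cxcr2) summed to 1.71 and 2.17 CPM in normal and 162 and 161 CPM in ischemic sections. In the ischemic outer stripe it was 332 and 337 CPM, with Hk2 at 3.09 and 3.88 CPM, and in the ischemic inner stripe 98.6 and 106 CPM, with Hk2 at 1.304 and 5.704 CPM. The part of these cells in the levels of Hk2 and of the lactate exporter Slc16a3 was not tested. Macrophage markers (6 genes) summed to 235 and 279 CPM in normal and 210 and 203 CPM in ischemic sections.

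In upper glycolysis, the forms of phosphofructokinase, the committing step, moved apart. Pfkm, the muscle form, fell from 34.5 and 34.7 CPM to 14.4 and 14.3 CPM (log2 fold change -1.27 ± 0.09, adjusted p = 4.66e-06, edgeR). Pfkp, the platelet form, rose from 47.6 and 46.6 CPM to 65.7 and 71.4 CPM (log2 fold change 0.54 ± 0.10, adjusted p = 0.00116, edgeR). Pfkl, the liver form, was at 38.0 and 39.3 CPM against 37.8 and 42.7 CPM (adjusted p = 0.64, edgeR). The share of Pfkm among phosphofructokinase UMIs went from 28.7% and 28.8% to 12.2% and 11.1% with ischemia. In the cortex it went from 36.8% and 39.4% to 21.3% and 20.1%, and in the outer stripe from 24.8% and 25.5% to 8.78% and 9.79%.

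Of the remaining upper steps, Aldoa, the main aldolase of this set, was at 838 and 706 CPM in normal and 981 and 1003 CPM in ischemic sections and did not pass the test in whole sections (adjusted p = 0.0701, edgeR). Aldoc, a form best known from brain, fell from 16.3 and 17.7 CPM to 7.56 and 10.7 CPM (log2 fold change -0.90 ± 0.16, adjusted p = 0.00101, edgeR). Tpi1, which interconverts the triose phosphates, fell from 907 and 694 CPM to 453 and 433 CPM (log2 fold change -0.85 ± 0.17, adjusted p = 0.00182, edgeR), a call lost without ischemic section 1 (-0.87, adjusted p = 0.0618) or 2 (-0.81, adjusted p = 0.0859). Gpi1, the isomerase between glucose-6-phosphate and fructose-6-phosphate, was at 321 and 279 CPM against 293 and 305 CPM. The enzymes that set fructose-2,6-bisphosphate, the activator of phosphofructokinase, did not pass the test either. Pfkfb2 was at 2.79 and 3.44 CPM against 2.97 and 3.91 CPM, Pfkfb3 at 10.4 and 11.2 CPM against 10.5 and 9.80 CPM, and Pfkfb4 at 4.96 and 4.89 CPM against 5.33 and 4.61 CPM.

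In lower glycolysis, 4 of the 7 genes rose in whole sections and none fell, where 31.0% of all genes were called higher and 29.7% lower. Pklr, the liver and red cell form of pyruvate kinase, was at 4.23 and 3.62 CPM in normal and 18.8 and 19.5 CPM in ischemic sections (log2 fold change 2.27 ± 0.13, adjusted p = 1.02e-06, edgeR). Pkm, the form of most other tissues, was at 247 and 247 CPM against 410 and 435 CPM (log2 fold change 0.77 ± 0.13, adjusted p = 0.000654, edgeR). The sections of a condition differed little for either gene. Eno1, the widespread enolase, rose from 259 and 236 CPM to 471 and 418 CPM (log2 fold change 0.85 ± 0.14, adjusted p = 0.000591, edgeR). Eno2, the enolase known from neurons, rose from 0.87 and 0.87 CPM to 2.83 and 2.79 CPM (log2 fold change 1.69 ± 0.24, adjusted p = 0.000304, edgeR). Gapdh, often used as a reference gene, was at 2933 and 2328 CPM against 2750 and 2468 CPM (adjusted p = 0.962, edgeR), Pgk1, which makes ATP, at 523 and 401 CPM against 389 and 374 CPM, and Pgam1, a mutase, at 436 and 353 CPM against 433 and 406 CPM. Gapdh, Pgam1, Gpi1, Hk1, Aldoa and Pdk1 passed as higher in whole sections with scaling by library size alone. Several of these genes have near-identical pseudogene copies, and the sources used here do not say how reads shared with them were counted.

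The pyruvate kinase genes split by zone. Pklr was at 5.23 and 5.62 CPM in the normal and 43.9 and 51.8 CPM in the ischemic cortex (log2 fold change 3.16 ± 0.14, adjusted p = 3.32e-10, edgeR). In the outer stripe it was at 5.14 and 4.34 CPM against 8.24 and 9.57 CPM (log2 fold change 0.93 ± 0.21, adjusted p = 0.000607, edgeR). The difference between zones was -2.25 ± 0.28 (adjusted p = 1.12e-05, edgeR). Pkm went the other way: it was at 254 and 230 CPM against 255 and 251 CPM in the cortex (adjusted p = 0.508, edgeR) and at 228 and 215 CPM against 425 and 418 CPM in the outer stripe (log2 fold change 0.96 ± 0.10, adjusted p = 3.22e-08, edgeR). Its difference between zones was 0.86 ± 0.16 (adjusted p = 0.000627, edgeR), and was not past the threshold without ischemic section 1 (0.87, adjusted p = 0.063) or 2 (0.86, adjusted p = 0.0588). With scaling by library size alone, Pkm passed in the cortex (log2 fold change 0.29, adjusted p = 0.00932). The share of Pklr among pyruvate kinase UMIs was 2.02% and 2.39% in the normal and 14.7% and 17.1% in the ischemic cortex, and 2.21% and 1.98% against 1.90% and 2.24% in the outer stripe. Red cell markers (4 genes) summed to 10706 and 9042 CPM in normal and 697 and 1461 CPM in ischemic sections, and their part in the level of Pklr was not tested.

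**Figure D5:**
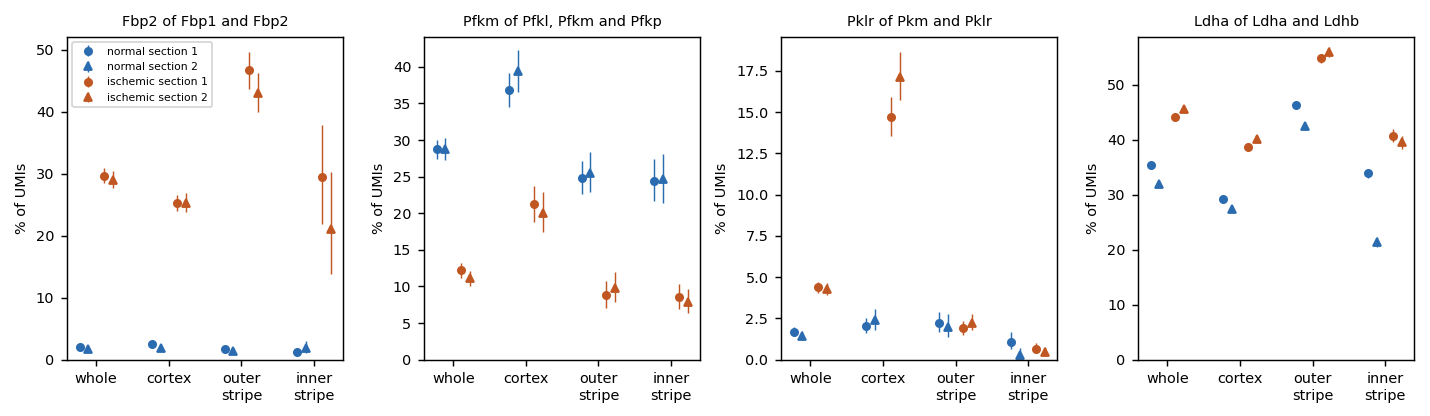
Share of UMIs held by 1 form within 4 gene families, in whole sections and 3 zones, in percent with 95% Clopper-Pearson intervals. Blue is normal and orange ischemic, circles section 1 and triangles section 2. The share of Pklr rose in the cortex, and that of Fbp2 in each zone shown.

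The lactate transporters of the set, Slc16a1 and Slc16a3, rose in whole sections, while Slc16a7 (MCT2), a further transporter of the family outside the set, fell from 48.7 and 54.2 CPM to 9.21 and 9.56 CPM (log2 fold change -2.45 ± 0.10, adjusted p = 2.53e-07, edgeR). Bsg, which brings MCT1 and MCT4 to the membrane, fell from 525 and 471 CPM to 311 and 302 CPM (log2 fold change -0.70 ± 0.13, adjusted p = 0.00163, edgeR) and was named after its values were seen. Slc16a1 (MCT1), which carries lactate and pyruvate across the membrane in both directions, was at 9.46 and 10.2 CPM in normal and 23.2 and 23.2 CPM in ischemic sections (log2 fold change 1.24 ± 0.10, adjusted p = 9.3e-06, edgeR). In the outer stripe it rose from 3.69 and 4.47 CPM to 18.4 and 19.6 CPM (log2 fold change 2.27 ± 0.18), further than in the cortex, where it went from 18.3 and 21.1 CPM to 40.6 and 44.3 CPM (difference 1.11 ± 0.20, adjusted p = 0.000475, edgeR). Slc16a3 (MCT4), the exporter of strongly glycolytic cells, was scarce, at 0.19 and 0.65 CPM against 1.74 and 2.76 CPM (log2 fold change 2.48 ± 0.47, adjusted p = 0.00162, edgeR), with a log2 fold change of 1.77 without normal section 1, 3.49 without normal section 2 and 1.43 from mean CPM per spot with a pseudocount (limma). Its log2 fold change in the outer stripe was 2.56 ± 0.54 (adjusted p = 0.000233, edgeR), 1.56 without normal section 1 and 4.59 without normal section 2, on 1 and 7 UMIs in normal and 24 and 23 UMIs in ischemic sections.

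Ldha, the lactate dehydrogenase subunit that favours lactate, was at 900 and 701 CPM against 660 and 641 CPM (adjusted p = 0.14, edgeR). Ldhb, the subunit that favours pyruvate, was at 1644 and 1498 CPM against 833 and 765 CPM (log2 fold change -0.98 ± 0.16, adjusted p = 0.00065, edgeR). That call was lost without ischemic section 1 (-1.03, adjusted p = 0.0574) or 2 (-0.91, adjusted p = 0.0965) in whole sections, while those in cortex and outer stripe were kept under every alternative. The share of Ldha in the UMIs of the pair rose from 35.4% and 31.9% to 44.2% and 45.6%, and in the outer stripe from 46.3% and 42.6% to 54.8% and 56.0%. Ldha itself was lower in the outer stripe, at 1157 and 968 CPM against 751 and 739 CPM (log2 fold change -0.47 ± 0.12, adjusted p = 0.00177, edgeR), a call lost without ischemic section 1 or 2, and Ldhb was lower by more, at 1340 and 1306 CPM against 619 and 581 CPM (log2 fold change -1.10 ± 0.12).

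At the entry of pyruvate into mitochondria, Pdk4, a kinase that switches off the pyruvate dehydrogenase complex, was at 3.96 and 5.61 CPM in normal and 33.8 and 36.9 CPM in ischemic sections (log2 fold change 2.90 ± 0.15, adjusted p = 7.39e-07, edgeR). It rose in each zone, from 3.10 and 4.00 CPM to 33.99 and 36.8 CPM in the cortex, from 5.24 and 7.92 CPM to 38.8 and 41.9 CPM in the outer stripe and from 6.03 and 7.61 CPM to 40.1 and 43.2 CPM in the inner stripe. Pdk1, a kinase of the same family known as a hypoxia target, was at 15.6 and 14.99 CPM against 17.2 and 16.9 CPM (adjusted p = 0.189, edgeR). Pdha1, a catalytic subunit of the complex, was at 315 and 265 CPM against 188 and 186 CPM (log2 fold change -0.63 ± 0.13, adjusted p = 0.00269, edgeR), lost without ischemic section 1 (-0.63, adjusted p = 0.0889) or 2 (-0.62, adjusted p = 0.0969).

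Other genes of these pathways and their regulators were counted from a list of 68 genes. Of the 66 tested in whole sections, 14 were higher and 35 lower, with a median log2 fold change of -0.45 against 0.04 over all genes, of which 31.0% were called higher and 29.7% lower in this comparison. Against the same shares, among 11 genes of pyruvate dehydrogenase and mitochondrial pyruvate entry, 1 was higher and 9 lower. They include Mpc1 and Mpc2, the carrier that brings pyruvate into mitochondria, which went from 1042 and 870 CPM to 314 and 289 CPM and from 1867 and 1390 CPM to 477 and 415 CPM (log2 fold changes -1.66 ± 0.16 and -1.87 ± 0.19). Khk, which phosphorylates fructose, fell from 720 and 512 CPM to 129 and 118 CPM. Pgam2 (log2 fold change -2.58), Slc16a7 (-2.45), Mdh1 (-2.07) and Pdpr (-2.06) also fell past 2 on the log2 scale, and the hexokinase domain gene Hkdc1 rose from 1.38 and 1.27 CPM to 3.83 and 3.38 CPM. Pfkfb1 was at 1.11 and 0.91 CPM against 1.24 and 1.60 CPM and did not pass (adjusted p = 0.18, edgeR).

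Of 15 regulators, 5 were higher and 7 lower, where 60.6% of all genes were called in either direction. Hif1a, a subunit of the oxygen-sensing transcription factor, rose from 38.7 and 38.9 CPM to 88.8 and 96.6 CPM (log2 fold change 1.26 ± 0.10). Myc, a driver of glycolytic genes, rose from 2.55 and 4.49 CPM to 40.4 and 36.7 CPM (log2 fold change 3.49 ± 0.20). Ppargc1a, the coactivator of mitochondrial and gluconeogenic genes, fell from 25.5 and 29.1 CPM to 10.4 and 10.5 CPM (log2 fold change -1.38 ± 0.11). Of 14 targets of hypoxia-inducible factors outside glycolysis, 3 were higher and 5 lower, a share near that of all genes. Adm, a vasodilator peptide, rose by 2.36 on the log2 scale, whereas Car9, a carbonic anhydrase, fell by 2.66.

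Normal sections alone already showed differences between the zones as drawn here. Between outer stripe and cortex, 11 of 33 genes differed in normal sections, 3 higher and 8 lower in the outer stripe, against 22.8% of all genes (12.5% higher, 10.3% lower). G6pc was 113 and 124 CPM in the cortex and 33.3 and 41.1 CPM in the outer stripe (log2 fold change -1.68 ± 0.10, adjusted p = 8.69e-11, edgeR), and Slc16a1 was lower there too (-2.27 ± 0.16, adjusted p = 1.11e-09, edgeR), whereas Pck1 and Fbp1 did not pass (adjusted p = 0.41 and 0.721). In the inner stripe, which holds thick ascending limbs, 20 of 33 genes differed from the cortex in normal sections, 8 higher and 12 lower, against 29.2% of all genes. Higher there were Hk1 (42.0 and 37.6 CPM in the cortex, 99.6 and 125 CPM in the inner stripe), Pfkp (33.2 and 32.0 CPM against 93.3 and 103 CPM), Pfkl, Aldoc (7.17 and 5.52 CPM against 49.6 and 63.6 CPM) and Pkm (254 and 230 CPM against 374 and 478 CPM). Lower there were the gluconeogenic Pcx, Pck1, Fbp1, Fbp2, G6pc and Slc37a4. Gapdh and Pgk1, of the middle steps, were also lower there (log2 fold changes -0.52 ± 0.09 and -0.44 ± 0.10). Calls of Eno1, Fbp2 and Pdk1 in the outer stripe and of Ldha, Ldhb, Pdha1, Pdk4 and Pfkm in the inner stripe were lost on leaving out a section.

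In ischemic sections, more of the genes passed the test between zones. Between outer stripe and cortex, 18 of 33 genes differed, 4 higher and 14 lower, against 36.2% of all genes (16.9% higher, 19.3% lower), and between inner stripe and cortex, 27 of 33 differed, 10 higher and 17 lower, against 49.5% of all genes. The contrast between zones itself differed between conditions for 14 of 33 genes for the outer stripe (3 positive, 11 negative), against 21.5% of all genes (8.05% positive, 13.5% negative), and for 18 of 33 for the inner stripe, against 19.0%. On leaving out either ischemic section, fewer of the 33 genes differed for either zone, and fewer of all genes too. Normal inner stripe spots held 4099 and 2293 CPM of the proximal tubule list, against 4263 and 3690 CPM in the normal cortex. In normal section 1 the inner stripe as drawn here thus held nearly as much proximal tubule RNA as the cortex. Ischemic inner stripe spots held 323 and 361 CPM, against 1773 and 1862 CPM in the ischemic cortex. The part of this in the contrasts was not tested.

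Within the inner stripe, 16 of 32 genes differed between conditions, 5 higher and 11 lower, against 43.2% of all genes (20.2% higher, 23.0% lower). In the set, fewer did without ischemic section 2, and among all genes fewer did without either ischemic section. Calls of Ldhb, Pck2, Pdha1, Pgam1, Pkm and Tpi1 were lost on leaving out a section. Hk1 was at 99.6 and 125 CPM in normal and 99.7 and 109 CPM in ischemic sections (adjusted p = 0.791, edgeR), and Pfkp at 93.3 and 103 CPM against 126 and 124 CPM (adjusted p = 0.107, edgeR). Pfkm fell from 48.5 and 57.8 CPM to 17.9 and 16.2 CPM (log2 fold change -1.60 ± 0.18, adjusted p = 0.00013, edgeR). Pck1 fell from 445 and 273 CPM to 31.3 and 37.3 CPM and Fbp1 from 505 and 293 CPM to 17.9 and 15.6 CPM, while Fbp2 was at 6.46 and 5.54 CPM against 7.45 and 4.18 CPM (adjusted p = 0.956, edgeR). The proximal tubule list went from 4099 and 2293 CPM to 323 and 361 CPM in this zone. Its part in the falls of Pck1 and Fbp1 was not tested. In the inner medulla, 11 of 29 genes differed, 3 higher and 8 lower, against 27.4% of all genes. In the set, more did without normal section 2. Among all genes, more did without either normal section and fewer without either ischemic section. Calls of Aldoc, Ldhb and Pkm in this zone were lost on leaving out a section. With scaling by library size alone, 5 genes of the set were higher and 7 lower there, against 12.0% and 12.7% of all genes. Spots of this zone in normal sections held 3927 and 491 CPM of 4 adipocyte markers and 50971 and 14202 CPM of red cell markers, against at most 1.06 and 863 CPM in ischemic sections. Pfkfb3, which makes fructose-2,6-bisphosphate, was at 52.8 and 42.1 CPM there in normal and 12.2 and 13.0 CPM in ischemic sections (log2 fold change -1.89 ± 0.24, adjusted p = 0.00125, edgeR). Without the spots rich in adipocyte RNA, its log2 fold change was -1.82 (adjusted p = 0.00108).

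The balance of both directions was described by the ratio of the summed CPM of 8 genes of the forward steps (Hk1, Hk2, Hk3, Pfkl, Pfkm, Pfkp, Pkm and Pklr) to that of 6 bypass genes (Pcx, Pck1, Pck2, Fbp1, Fbp2 and G6pc). It was 0.255 and 0.291 in normal and 0.908 and 1.08 in ischemic whole sections. In the cortex it was 0.180 and 0.178 against 0.282 and 0.291, in the outer stripe 0.239 and 0.227 against 1.62 and 1.65, and in the inner stripe 0.611 and 1.16 against 8.99 and 8.61. The conditions did not overlap in any of these zones. Such sums follow their most abundant genes. In whole sections, Pkm averaged 247 CPM in normal and 422 CPM in ischemic sections, Fbp1 628 and 112 CPM, and Pck1 608 and 351 CPM. The fall of Pfkm and the rises of Fbp2 and Pck2 went against the ratio and weigh little in it. An exact permutation test of 2 against 2 sections cannot go below p = 0.333 (two-sided), and the ratio is given as a description of transcripts. The proximal tubule list went from 4123 and 3419 CPM in normal to 1006 and 1010 CPM in ischemic whole sections. Its part in the ratio was not tested.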

How the data were processed

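Gene expression was measured in 2 normal and 2 ischemic Visium sections. The authors ran Space Ranger (1.3.0 per the file headers, build mm10 per the submitters' processing notes), and the deposited values are UMI counts, not normalized, for each gene in each spot, beside spot positions. Counts were summed over tissue spots per section, or per section and zone of at least 20 spots, and tested with edgeR 4.0.16 in R 4.3.3 (TMM, filterByExpr, quasi-likelihood test, two-sided, Benjamini-Hochberg over all genes tested, threshold 0.05). Contrasts between zones had a section term. Zones came from lists for cortex (Slc5a2, Slc5a12, Slc34a1, Slc22a6, Slc22a8, Slc12a3), outer stripe (Slc7a13, Cyp7b1, Serpina1f, Slc22a13, Atp11a), inner stripe (Slc12a1, Umod, Cldn10, Ptger3), inner medulla (Slc14a2, Akr1b3, Cryab, Aqp2, Fxyd4) and pelvis (Upk1a, Upk1b, Upk2, Upk3a, Krt5, Psca). The genes and lists were chosen with earlier results of these data known. All 34 genes were named, other pathway genes as counts with 8 set examples, of which 1 is not reported here, and those past 2 on the log2 scale. Shares have Clopper-Pearson intervals from scipy 1.17.1. Aldoa has 2 rows in the files, of which that with 112515 counts was used and that with 2 left out. On simulated counts, edgeR recovered 186 of 200 changed genes with 1 false call in whole sections (15191 genes), 181 with 6 in the outer stripe (13552 genes) and 123 with 3 for the difference between zones (13007 genes). The simulated sections shared the same average expression and a fixed spread, and all changes were equal in size. These rates need not hold for the data. Alternatives were DESeq2 1.42.0, other scaling, no filter, other spot and zone sets, limma 3.58.1 on mean CPM with a pseudocount of 1, shared or block models and leaving out each section.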

Additional observations from a re-analysis of the deposited data

Results flagged for a closer look

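The contrast of outer stripe against cortex differed between normal and ischemic sections for 14 genes, by the test of that difference in edgeR (log2 scale, negative where the zone stood lower against the cortex in ischemic sections). Negative were Pck1 (-2.37), Pklr (-2.25), Fbp1 (-1.98), Slc37a4 (-1.53), G6pc (-1.18), Pfkm (-0.77), Pcx (-0.73), Pdk4 (-0.68), Tpi1 (-0.65), Pdha1 (-0.53) and Pfkp (-0.48), and positive were Hk2 (4.57), Slc16a1 (1.11) and Pkm (0.86). Of these, Pck1, Pklr, Fbp1, Slc37a4, G6pc and Slc16a1 kept the call under every alternative, and Hk2, Pcx, Pdha1, Pdk4, Pfkm, Pfkp, Pkm and Tpi1 lost it on leaving out a section (adjusted p from 0.0519 to 0.381).

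The contrast of inner stripe against cortex differed between conditions for 18 genes by the same test. Negative were Pck1 (-3.43), Fbp1 (-2.87), Pklr (-2.71), Fbp2 (-2.31), G6pc (-1.33), Slc37a4 (-1.27), Pcx (-1.12), Eno1 (-1.10), Pgam1 (-0.95), Tpi1 (-0.76), Pdk4 (-0.71), Pfkm (-0.56), Pdha1 (-0.51), Ldhb (-0.45) and Gpi1 (-0.43), and positive were Slc16a1 (1.81), Pkm (0.63) and Pdk1 (0.60). Eno1 was at 328 and 291 CPM in the normal and 694 and 615 CPM in the ischemic cortex, and at 290 and 325 CPM against 305 and 302 CPM in the inner stripe. On leaving out a section, 10 of the 18 lost the call (G6pc, Gpi1, Ldhb, Pcx, Pdha1, Pdk1, Pdk4, Pfkm, Pklr and Pkm, adjusted p from 0.0922 to 0.427). Without normal section 1, Pklr was at -1.50 (adjusted p = 0.301).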

How the results depend on the processing

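Of 2689 comparisons of a called gene with its value under an alternative, 2462 kept direction and threshold, 226 kept direction only and 1 turned: Pfkl in the outer stripe, -0.25 on the log2 scale, was 0.11 (adjusted p = 0.491) with scaling by library size alone. In whole sections, 16 of the 21 calls held under every alternative. Leaving out each section gave 16 to 25 called genes in whole sections, 14 to 21 in the cortex, 19 to 25 in the outer stripe, 10 to 23 in the inner stripe and 8 to 17 in the inner medulla. The difference of outer stripe against cortex gave 6 to 14, and that of inner stripe against cortex 9 to 18. With no section term these became 9 and 11, and without spots near a zone boundary the second was 10. All genes moved too. With no section term, 626 were positive and 1039 negative of 14174 for the outer stripe, against 1141 and 1907 in the main fit. For the inner stripe they were 393 and 1187, against 728 and 1972. The cause was not tested. The ratio of forward to bypass genes was 3.64 times higher in ischemic sections, and 3.33 to 3.95 times on leaving out a section. The proximal tubule list was 3.74 times lower in ischemic whole sections, and its part in the ratio was not tested. With the replicate number as a block, 22, 20, 23, 16 and 10 genes were called in whole sections, cortex, outer stripe, inner stripe and inner medulla, and Pgam1 in the inner stripe (adjusted p = 0.0504) and Ldhb in the inner medulla (adjusted p = 0.0619) lost their calls; deviations of equally numbered sections correlated at 0.219 across 15305 genes, and only 2 pairs exist, so the numbers were not taken as pairs. Among all genes, the block fit called 5197 higher and 4892 lower of 15305 in whole sections, against 4737 and 4542 in the main fit. Each of the 4 zones tested also had more calls among all genes with the block. Genes with few UMIs (Hk2, Hk3, Slc16a3, Eno2) are limited by depth.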
